A study of Mus musculus with 6 samples.

Results

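The guanylate-binding proteins and the immunity-related GTPases are interferon-induced enzymes of cell-autonomous defence, and 10 of their mouse genes are described here: Gbp2, Gbp3, Gbp7, Irgm1, Irgm2, Igtp, Iigp1, Ifi47, Tgtp1 and Tgtp2. The genes were taken by symbol from a table of read counts for 25189 gene symbols, and all 10 had a row with counts. The mice were male, wild type (WT) and of the C57BL/6 strain, and RNA-seq was made from their kidneys on day 2. One group of 3 libraries came from mice with ischemia/reperfusion (I/R), in which the blood supply of the kidney is stopped and then restored. The other group of 3 libraries came from mice with I/R that also received chemerin-9, a short peptide from the end of the chemokine-like protein chemerin. No library from an uninjured kidney was analysed here, so a fall with chemerin-9 is relative to I/R alone. The labels do not give the age of the mice, or the dose, route or timing of chemerin-9. They do not say that each library is a separate mouse, and the p-values given are only as wide as the differences among these libraries, which could be technical.

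Guanylate-binding proteins are large GTPases related to dynamin that assemble on bacteria and on the membranes of parasite vacuoles inside infected cells. The immunity-related GTPases of mice fall into regulators, the IRGM proteins, which sit on the cell's own membranes, and effectors, the GKS proteins, which load onto vacuoles that lack the regulators. Interferon-gamma induces both families strongly, in part through IRF1, and type I interferons induce many of them through a complex that holds STAT2 and IRF9. Many cell types express them once exposed to interferon, among them macrophages, fibroblasts and endothelial and epithelial cells.

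The summed level of the 10 genes was 2.46-fold lower with chemerin-9. Of the members, 6 reached the minimum count in all 6 libraries, and each of these was lower: Gbp2, Gbp3, Irgm1, Irgm2, Igtp and Ifi47. Tgtp2 was called lower too, but it entered the test through its I/R libraries alone and is not counted with them. Levels are given as CPM, counts scaled to 1000000 in the TMM-adjusted library size. In I/R the sum was 192 ± 4.18 CPM, against 77.9 ± 4.20 CPM with chemerin-9 (mean and SD over n = 3 libraries in each group). It ranged from 187 to 196 CPM in the I/R libraries and from 73.5 to 81.8 CPM in the chemerin-9 libraries, with a wide gap between them. Among those 6 the decrease was largest for Gbp2 and smallest for Ifi47. The comparison as a whole moved many genes: edgeR's quasi-likelihood test, with Benjamini-Hochberg adjustment over 14184 genes, called 51.7% of them at an adjusted p under 0.05. Lower calls made up 26.1% of the tested genes, so a fall on its own was common. A lower call with a fall by at least 1 on the log2 scale was made in 2.51% of the tested genes. It was made in 5 of those 6 members, all but Ifi47. The 3 members left out of the test for low counts were Gbp7, Iigp1 and Tgtp1. In each of the 6 members with the minimum count in all libraries, every I/R library was above every chemerin-9 library. That also held for 29.2% of the tested genes. Gbp7 and Tgtp2 had no overlap either, but with their low counts they are not set against that share. In bulk tissue, fewer cells of a type and less RNA per cell cannot be told apart.

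The libraries held between 11217252 and 16938301 counted reads. The median log2 fold change of all tested genes was -0.0037. The edgeR fit put the common coefficient of variation between libraries of a group at 5.18%. Whether that is the spread between separate mice was not tested. Of the I/R libraries, replicate 3 differed most, at a chi-square of counts over degrees of freedom of 5.14 to 5.61 against replicates 1 and 2, compared with 1.80 to 2.17 for the other pairs within a group. Without that library the 7 tested members were again called lower, with log2 fold changes from -2.03 for Gbp2 to -0.79 for Ifi47. The ribosomal RNA row Rn18s-rs5 held 0.381% to 0.517% of the counts in I/R, against 0.261% to 0.306% with chemerin-9, and its part in the results was not tested. Each library carries a batch value of its own in the labels, so batch and treatment cannot be told apart. Markers of the nephron were low for a kidney: 7 of 16 had a row, their sum was 24.8 to 25.6 CPM in I/R, against 22.2 to 27.6 CPM with chemerin-9, and most of it was Aqp1. Slc12a1 and Aqp2, which define the thick limb and the collecting duct, had means under 1 CPM. Fibroblast markers summed to 5030 to 5128 CPM in I/R, against 4225 to 4330 CPM with chemerin-9, led by Fn1, Vim and Col1a1. Of 9 tested fibroblast markers 4 fell, Vim by 0.68, Acta2 by 0.49, Col1a2 by 0.30 and Fn1 by 0.13 on the log2 scale. Another 2 rose, Pdgfrb by 0.49 and Col3a1 by 0.45, and Col1a1 did not pass. Over all tested genes 26.1% fell and 25.6% rose. Leukocyte markers had a row for 5 of 20, and their sum was 4.61 to 6.09 CPM in I/R, against 4.62 to 6.78 CPM with chemerin-9. Cd68 and Lyz2 of the macrophages carried most of that sum, and neither passed the test. Endothelial markers had a row for 7 of 10 and summed to 6.76 to 7.10 CPM in I/R, against 11.2 to 12.5 CPM with chemerin-9, where Flt1 rose by 0.93 on the log2 scale (edgeR adjusted p = 1.0e-04) and carried most of the difference. Eng was 0.94 CPM in I/R, against 0.655 CPM with chemerin-9, and did not pass. The part of these cell type markers in the results on the GTPases was not tested.

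Interferon-responsive genes are read through short DNA elements near their start, the ISRE for the complex that holds STAT2 and IRF9 and for other IRFs, and the GAS for the response to interferon-gamma. The stretches of promoter that hold these elements are shown because they are the feature that most members share outside the rule that chose them. RefSeq promoters on GRCm38.p6 (250 bases before to 50 after the start) were found for 9 of the 10 members, all but Iigp1. In the lines that follow, capitals mark the matches and 4 flanking bases stand on each side. The longer Gbp7 stretch, with 2 GAS cores and 1 ISRE core, is left out.
Gbp2: ttagTTTCACTTTCactg
Gbp3: acagTTTCAGTTTCTATTTCccag
Irgm1: tcaaGAAATAGAAACCGAAActga
Igtp: ccatTTCTAGGAActGAAACTGAAAgctg
Irgm2: ccatTTCCAGGAActGAAACTGAAAgctg
Tgtp1: ccatTTCCAGGAAtcGAAACTGAAAccta
Tgtp2: ccatTTCCAGGAAtcGAAACCGAAAccta
The ISRE core was searched as TTTC, NN and TTTC without a gap, and the GAS core as TTC, NNN and GAA, on both strands, where N is any base. An ISRE on the strand opposite to the one shown reads GAAA, NN and GAAA. An ISRE core was found in 8 of the 9 member genes, counted if any window of the gene held it. Counted by single window, it was in 3.44% of 32851 RefSeq promoters of mouse. A GAS core was found in 5 of the 9, against 8.3% of all promoters, and those 5 also held an ISRE, a combination in 0.454% of all promoters. Ifi47 had neither core in its window, and a second Gbp3 window, chr3:142560106-142560405, had neither as well. The stretches of Igtp and Irgm2 are nearly the same, as are those of Tgtp1 and Tgtp2, so these genes are not separate observations.

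Igtp, Irgm2, Tgtp1 and Tgtp2 carried the elements in one fixed arrangement, a GAS core followed after 2 bases by an ISRE core on the opposite strand. That arrangement was put together after the member promoters had been read, so its frequency is a description. It occurred in 5 of the 32851 promoters, those 4 members and the related gene Gm12185. It began 45 bases before the start in Igtp, 75 in Irgm2, 88 in Tgtp1 and 81 in Tgtp2. Both promoters of the pair Igtp and Irgm2 are on the plus strand of chromosome 11, at chr11:58199306-58199605 and chr11:58214727-58215026. The Tgtp1 and Tgtp2 promoters are on the minus strand, at chr11:48992197-48992496 and chr11:49064163-49064462. In GENCODE the Irgm2 gene begins upstream of its window, at position 58199618 beside Igtp. The Tgtp1 gene also begins upstream of its window there, at position 48994172, as does the Irgm1 gene, at position 48871683. Distances to the start thus hold for RefSeq only. Of 18 windows of members and relatives, 13 had their last 40 bases in a GENCODE transcript of the gene. The whole Igtp window is shown, since its arrangement lies nearest to the start.
Igtp promoter: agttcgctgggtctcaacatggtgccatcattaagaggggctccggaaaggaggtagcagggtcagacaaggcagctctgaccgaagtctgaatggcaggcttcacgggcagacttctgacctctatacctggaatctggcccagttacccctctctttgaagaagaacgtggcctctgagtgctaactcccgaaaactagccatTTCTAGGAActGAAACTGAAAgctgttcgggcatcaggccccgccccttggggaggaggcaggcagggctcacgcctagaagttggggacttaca
Gbp2 has an ISRE alone, 59 bases before the RefSeq start, in the plus-strand window chr3:142620413-142620712. In GENCODE the Gbp2 gene begins upstream of that ISRE, at position 142620602. The window is shown because Gbp2 had the largest decrease of the tested members.
Gbp2 promoter: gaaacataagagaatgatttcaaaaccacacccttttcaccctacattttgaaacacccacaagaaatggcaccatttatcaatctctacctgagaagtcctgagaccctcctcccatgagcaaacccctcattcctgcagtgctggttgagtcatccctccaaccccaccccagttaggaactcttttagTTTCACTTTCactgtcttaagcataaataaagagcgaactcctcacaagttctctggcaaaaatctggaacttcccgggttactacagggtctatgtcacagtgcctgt
Ifi47, the tested member that fell least, has a plus-strand window with no match, at chr11:49076337-49076636.
Ifi47 promoter: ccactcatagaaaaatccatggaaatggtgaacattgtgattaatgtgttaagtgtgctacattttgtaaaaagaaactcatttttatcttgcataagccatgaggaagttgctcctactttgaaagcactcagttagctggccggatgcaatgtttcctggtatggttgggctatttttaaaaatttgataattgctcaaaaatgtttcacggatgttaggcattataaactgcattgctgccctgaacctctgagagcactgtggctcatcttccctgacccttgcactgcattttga
A match is a string of letters and does not show that a factor was bound. The share of promoters with an ISRE core was 3.68% over the 9733 tested genes with a promoter. It was 16.76% over the 185 that were called and fell by at least 1 on the log2 scale. Without the members the latter share was 13.97% of 179 genes. It was 3.85% over the 286 genes that were called and rose by at least 1, and 3.19% over the 4325 genes that were not called. The GAS share differed less, at 8.13% over the tested genes, 11.89% over those that fell and 10.61% without the members. It was 9.79% over the genes that rose and 8.39% over those not called. Of 4 listed interferon signalling genes that fell and had a promoter, 1 held an ISRE core, Stat2, against 2 of 10 not called. None of these shares was tested.

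Among the guanylate-binding proteins, Gbp2 and Gbp3 fell and Gbp7 was near the limit of detection. Gbp2, a protein that in mice loads onto Toxoplasma vacuoles, lies on the plus strand of chromosome 3 (GRCm38, chr3:142620602-142638008). Its level was 21.1, 17.5 and 16.6 CPM in I/R replicates 1 to 3, and 4.44, 4.27 and 5.39 CPM in the chemerin-9 libraries. The lowest I/R library was thus far above the highest chemerin-9 library. The means were 18.4 ± 2.40 and 4.70 ± 0.599 CPM (SD, n = 3 each). The log2 fold change was -1.96 (SE 0.14, 95% confidence interval -2.26 to -1.66), with an edgeR adjusted p of 3.0e-08, which is 3.92-fold lower by the means. Ranked from the most negative log2 fold change of the 14184 tested genes, Gbp2 was number 38.

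Gbp3 was the most abundant guanylate-binding protein gene here and lies between Gbp7 and Gbp2b at chr3:142560026-142573209. It stood at 42.4, 44.2 and 46.9 CPM in I/R, against 16.2, 14.0 and 15.1 CPM with chemerin-9. The libraries of a group lay within a few CPM of each other and the groups were far apart. The log2 fold change was -1.56 (SE 0.08, 95% confidence interval -1.73 to -1.39, edgeR adjusted p = 1.0e-09), from a mean of 44.5 ± 2.29 to 15.1 ± 1.10 CPM. Gbp7, which in mice has been tied to assembly of the phagocyte oxidase, had 13, 14 and 6 counts in the I/R libraries and 1, 2 and 3 counts in the chemerin-9 libraries. Every I/R library was above every chemerin-9 library, but only 2 of 6 libraries reached the 0.738 CPM that the filter asks for in 3 libraries, so Gbp7 was not tested. With no filter on low counts its log2 fold change was -2.32 with an edgeR adjusted p of 0.0036. Leaving out 1 library brought Gbp7 into the test in 4 of 6 cases, with log2 fold changes of -2.68 to -2.08 and adjusted p of 5.2e-04 to 0.030. In those cases Gbp7 passed the filter only through I/R replicates 1 and 2, where it was high. Those values are thus not counted as support for a fall. Over its exons, 11.3% of the Gbp7 gene model is shared with the pseudogene Gm43802 on the same strand, so reads there could be split or left uncounted.

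**Figure D1:**
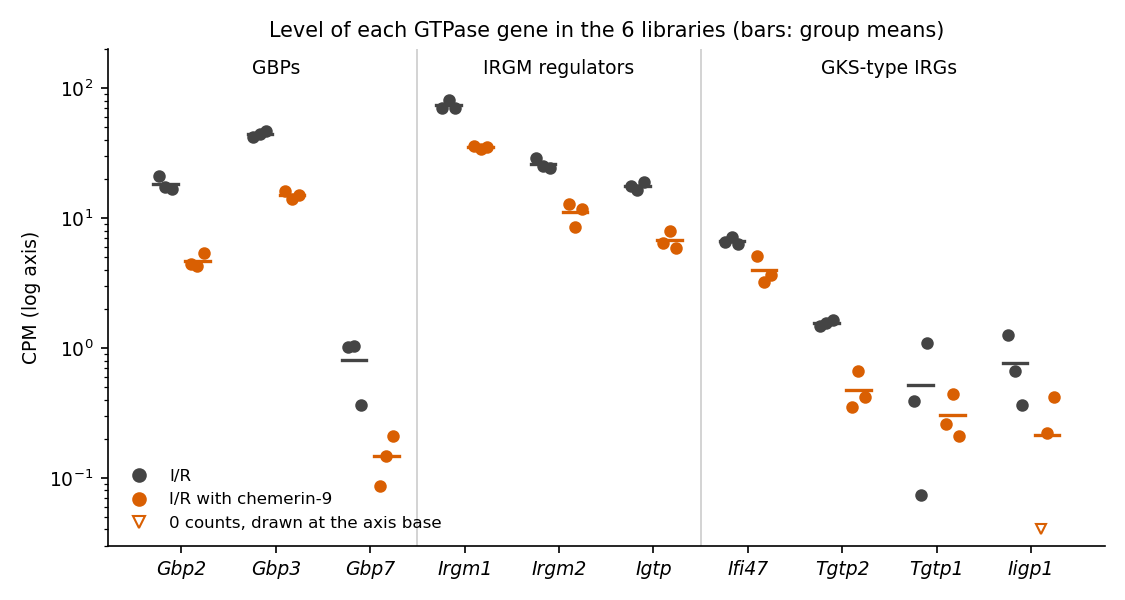
Level of the 10 GTPase genes in each of the 6 libraries, in CPM on a log axis, with the genes grouped as guanylate-binding proteins, IRGM regulators and GKS effectors. Points are libraries and lines are group means; in Gbp2, Gbp3, Gbp7, Irgm1, Irgm2, Igtp, Ifi47 and Tgtp2 every I/R library is above every chemerin-9 library, while Iigp1 and Tgtp1 overlap.

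All 3 IRGM regulators fell, and they made up most of the counts of the set. Irgm1 is needed in mice for control of mycobacteria and for upkeep of blood stem cells under interferon. It lies on the minus strand at chr11:48861968-48871683 and was the most abundant member, at 70.7, 81.7 and 70.5 CPM in I/R, against 36.0, 34.0 and 35.3 CPM with chemerin-9. Every I/R library was well above every chemerin-9 library. The log2 fold change was -1.08 (SE 0.07, 95% confidence interval -1.22 to -0.94), with an edgeR adjusted p of 6.9e-09. Irgm2, a regulator found at the Golgi, stood at 28.9, 25.4 and 24.3 CPM in I/R, against 12.9, 8.55 and 11.8 CPM with chemerin-9. Its libraries spread more within the chemerin-9 group than those of Irgm1, and the groups did not overlap. The log2 fold change of Irgm2 was -1.24 (SE 0.13, edgeR adjusted p = 1.3e-06). Igtp, also called Irgm3, is a regulator on the endoplasmic reticulum and lipid droplets. It stood at 17.8, 16.5 and 19.1 CPM in I/R, against 6.45, 7.96 and 5.88 CPM with chemerin-9, again with no overlap. For Igtp the log2 fold change was -1.40 (SE 0.13, edgeR adjusted p = 3.9e-07).

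Igtp and Irgm2 are neighbours that share 162 exon bases on the same strand in the GENCODE annotation, which is 8.0% of the Igtp exons and 4.4% of the Irgm2 exons. The setting for such reads in the authors' counting was not stated. Summed over both genes, the log2 fold change was -1.30 (edgeR adjusted p = 6.2e-09), between the values of the separate genes. The ratio of Igtp to Irgm2 counts within a library was 0.615 to 0.786 in I/R, against 0.497 to 0.931 with chemerin-9. These ranges overlap, and a two-sided exact permutation test over the 6 libraries gave p = 0.6 for the difference in log2 ratio. The smallest p that this test allows is 0.1.

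Of the GKS effectors, Ifi47 and Tgtp2 fell, and Iigp1 and Tgtp1 had too few counts to test. Ifi47, also called Irgd, lies at chr11:49076587-49096974 and had the highest level of the 4, at 6.58, 7.13 and 6.37 CPM in I/R, against 5.14, 3.24 and 3.64 CPM with chemerin-9. The I/R libraries lay close together, and the highest chemerin-9 library came near them without overlap. The log2 fold change was -0.75 (SE 0.18, 95% confidence interval -1.14 to -0.36), with an edgeR adjusted p of 0.0031. It kept an adjusted p of at most 0.021 over 14 alternative fits, with log2 fold changes from -0.96 to -0.62. Its exons overlap the olfactory receptor gene Olfr56 on the same strand over 111 bases.

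Tgtp1 and Tgtp2 are a near-identical pair that encode Irgb6, a protein that reaches the Toxoplasma vacuole early. Their longest transcripts match at 99.8% of 2811 aligned bases, so how reads were split between them is uncertain. Tgtp2 had 19, 21 and 27 counts in I/R, against 4, 9 and 6 counts with chemerin-9, without overlap. For Tgtp2 the log2 fold change was -1.68 (SE 0.37, 95% confidence interval -2.47 to -0.89, edgeR adjusted p = 0.0014), and it passed the count filter through the 3 I/R libraries only. Tgtp1 had 5, 1 and 18 counts in I/R, against 3, 6 and 3 counts with chemerin-9, so the groups overlapped and a single I/R library held most of its I/R counts. Summing the pair gave 24, 22 and 45 counts in I/R, against 7, 15 and 9 counts with chemerin-9. The groups of sums did not overlap, and the log2 fold change of the sum was -1.41 (SE 0.35, edgeR adjusted p = 0.0036). Iigp1, or Irga6, is the best-studied effector and lies on chromosome 18, apart from the other members. It had 16, 9 and 6 counts in I/R, against 0, 3 and 6 counts with chemerin-9, with the lowest I/R library level with the highest chemerin-9 library. With no filter on low counts, Iigp1 had a log2 fold change of -1.68 (edgeR adjusted p = 0.031) and Tgtp1 one of -0.82 (edgeR adjusted p = 0.40).

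**Figure D2:**
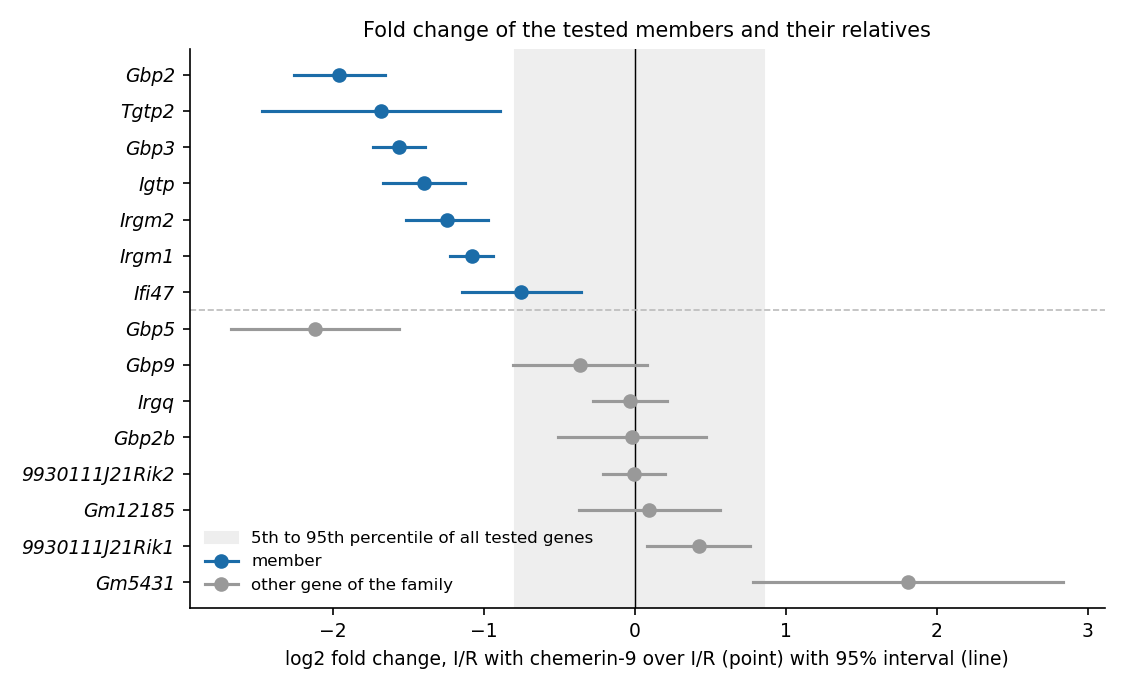
Log2 fold change with chemerin-9 against I/R from the edgeR fit, with 95% confidence intervals, for the tested members and the tested relatives of the same families. The grey band spans the 5th to 95th percentile of all 14184 tested genes, from -0.80 to 0.86; the members other than Ifi47 lie below it, with Gbp5, while Gbp2b, Gbp9, Gm12185, 9930111J21Rik2 and Irgq lie inside it with intervals that cross 0.

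Per kilobase of exon, the most abundant members in I/R were Gbp3 at 13.6 ± 0.702 and Irgm1 at 12.8 ± 1.10 CPM per kb (SD, n = 3). Their library ranges, 12.97 to 14.4 and 12.1 to 14.1 CPM per kb, overlapped, so these neighbours in the order did not differ beyond their spread. With the longest transcript as the length, Irgm1 led at 19.4 against 16.6 CPM per kb for Gbp3. Igtp followed at 8.80 ± 0.648, then Gbp2 at 7.32 ± 0.954 and Irgm2 at 7.10 ± 0.645 CPM per kb. The library range of Gbp2, 6.61 to 8.40 CPM per kb, overlapped those of both, while Igtp and Irgm2 did not overlap. Ifi47 came next at 2.71 ± 0.159 and Tgtp2 at 0.532 ± 0.0257 CPM per kb, each clear of its neighbours. Tgtp1, Gbp7 and Iigp1 were all under 0.2 CPM per kb and could not be ordered.

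With chemerin-9 Irgm1 came first, by exon length and by longest transcript alike, whereas in I/R the first place depended on the length used. Irgm1 led at 6.04 ± 0.177 CPM per kb, above Gbp3 at 4.63 ± 0.338 CPM per kb, with ranges of 5.85 to 6.20 and 4.29 to 4.96 CPM per kb that did not overlap. Igtp stood at 3.34 ± 0.532 and Irgm2 at 3.01 ± 0.614 CPM per kb, while Gbp2 stood at 1.87 ± 0.238 CPM per kb. The guanylate-binding proteins took a smaller part of the set. They held 32.0% to 34.1% of the members' counts in the I/R libraries and 25.1% to 26.4% in the chemerin-9 libraries. The IRGM share was 60.8% to 63.1% in I/R, against 67.6% to 68.7% with chemerin-9. The GKS share was 4.82% to 5.07% in I/R, against 5.98% to 7.03% with chemerin-9. Each share had ranges that did not overlap, and none was tested.

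Other genes of the same families did not move as a block. Of 20 further guanylate-binding protein and immunity-related GTPase genes listed, 14 had a row, 8 were tested, 1 fell, 2 rose and 5 did not pass. The median log2 fold change of those 8 genes was -0.01, against -0.0037 over all tested genes, of which 26.1% fell and 25.6% rose. Gbp5, a protein tied to NLRP3 inflammasome activity in mice, fell from 4.07, 4.53 and 3.76 CPM in I/R to 0.784, 1.179 and 0.839 CPM with chemerin-9. No library of one group came near the other. Its log2 fold change was -2.12 (SE 0.26, edgeR adjusted p = 7.8e-06), a larger decrease than any tested member had.

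Gbp2b, the gene of mouse Gbp1, lies between Gbp3 and Gbp2 and did not pass the test. It stood at 3.21, 3.42 and 2.97 CPM in I/R, against 3.31, 2.28 and 3.85 CPM with chemerin-9, with overlapping groups. The log2 fold change was -0.02 with a 95% confidence interval of -0.51 to 0.47 (edgeR adjusted p = 0.95), an interval that ends well short of the value for Gbp2. The transcripts of Gbp2 and Gbp2b match at 83.8% over 1709 aligned bases. Within a library, the ratio of Gbp2 to Gbp2b counts was 5.11 to 6.59 in I/R, against 1.34 to 1.87 with chemerin-9. The ratio of Gbp3 to Gbp2b was 12.9 to 15.8 in I/R, against 3.93 to 6.13 with chemerin-9. Neither pair of ranges overlapped, and the two-sided exact permutation test gave p = 0.1 for each, the smallest that 3 against 3 libraries allow. Adjusted over the 6 ratios compared, the value was 0.12, so neither passed. The Gbp2b promoter holds the same ISRE letters as Gbp2, TTTCACTTTC, but 137 bases before the RefSeq start.

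The relatives that rose were Gm5431 and 9930111J21Rik1, both in the chromosome 11 cluster of immunity-related GTPases. Gm5431 had 1, 7 and 6 counts in I/R, against 12, 19 and 15 counts with chemerin-9, a small count with no overlap, and it passed the count filter through the 3 chemerin-9 libraries only. Its log2 fold change was 1.81 (SE 0.48, edgeR adjusted p = 0.0055). The gene 9930111J21Rik1 stood at 5.25, 4.09 and 4.98 CPM in I/R, against 6.10, 6.19 and 6.85 CPM with chemerin-9, with a log2 fold change of 0.42 (edgeR adjusted p = 0.039). That call was lost in 7 of 14 alternative fits, where the adjusted p lay between 0.058 and 0.14. Its close neighbour 9930111J21Rik2 had a log2 fold change of -0.0046 (95% confidence interval -0.21 to 0.20).

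Gm12185, a relative with the same promoter arrangement as Tgtp1 and Tgtp2, did not pass, at a log2 fold change of 0.10 (95% confidence interval -0.37 to 0.56). It stood at 4.33 ± 1.01 CPM in I/R, against 4.63 ± 1.05 CPM with chemerin-9 (SD, n = 3). Gbp9 had a log2 fold change of -0.36 (95% confidence interval -0.81 to 0.08, edgeR adjusted p = 0.16). Irgq, a relative that is not known as an interferon target, had one of -0.03 (95% confidence interval -0.28 to 0.21). The genes with too few counts were Gbp4, Gbp10, Gm12250, Gm4951, Gvin1 and Irgc1. Of these, Gm12250 had 4, 0 and 3 counts in I/R, against 6, 8 and 5 counts with chemerin-9, and the other 5 overlapped between groups. Gbp6, Gbp8, Gbp11, F830016B08Rik, Gm4070 and Gm8995 were not analysed here.

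**Figure D3:**
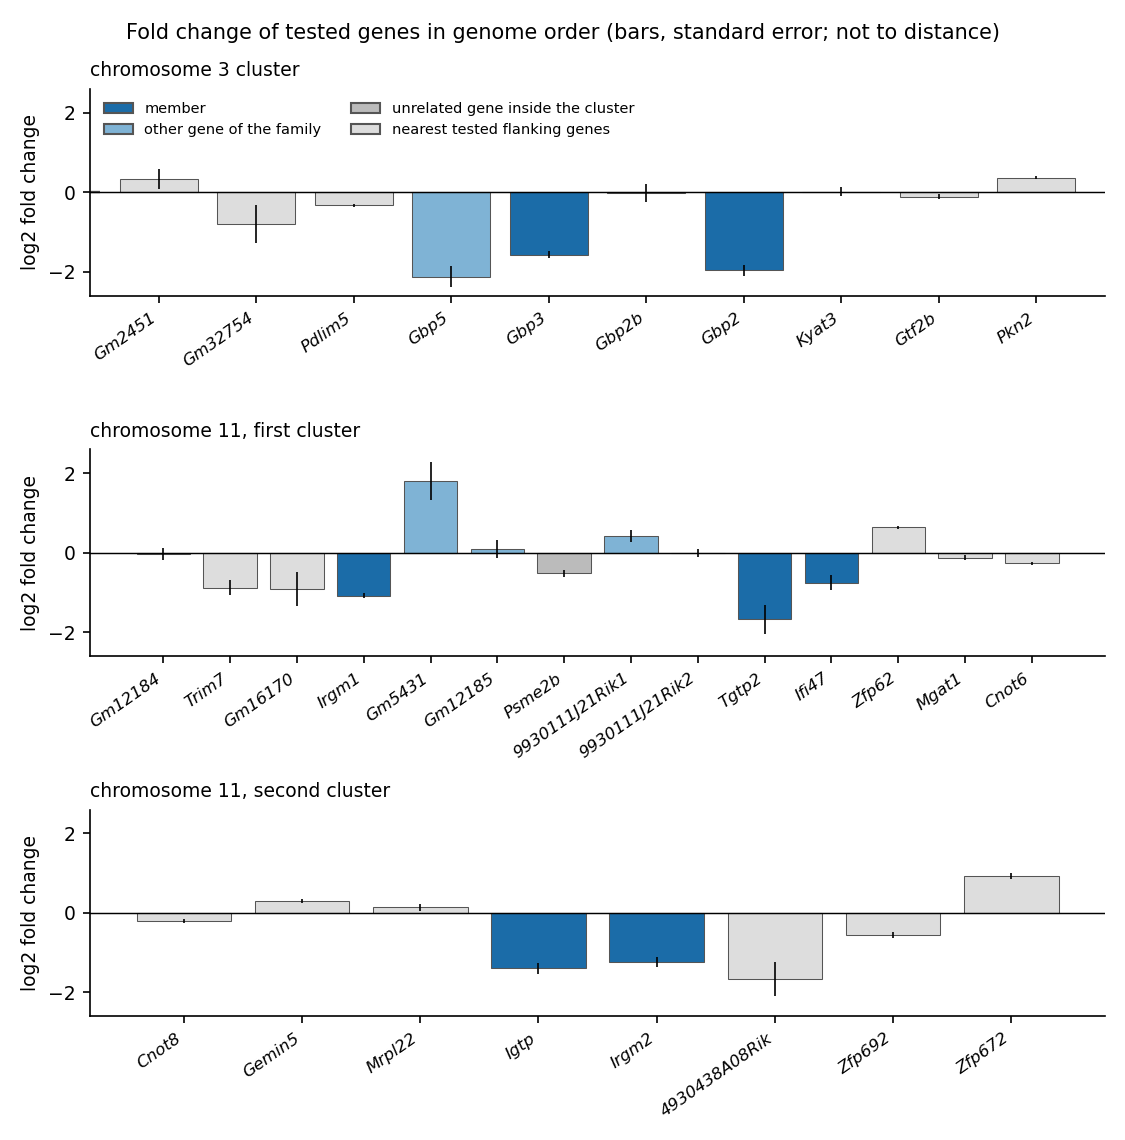
Log2 fold change with chemerin-9 against I/R (bars, with the edgeR standard error) for the tested genes in and beside the 3 clusters that hold 9 of the members, drawn in genome order, not to scale. Gbp2b between Gbp3 and Gbp2, and Gm5431 and Gm12185 beside Irgm1, lie near or above 0 while the members around them lie below 0.

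All members but Iigp1 lie in 3 gene clusters, and the genes around them moved in both directions. The chromosome 3 cluster spans 144.0 kb (chr3:142493978-142638008) and holds Gbp5, Gbp7, Gbp3, Gbp2b and Gbp2. The first chromosome 11 cluster spans 235.0 kb (chr11:48861968-49096974) and holds Irgm1, Tgtp1, Tgtp2 and Ifi47 among 8 genes of the family. The second spans 35044 bases (chr11:58187739-58222782) with Gm12250, Igtp and Irgm2. Of 19 tested genes inside or beside the clusters that are not of the families, 7 fell, 4 rose and 8 did not pass, where 26.1% and 25.6% of all tested genes fell and rose. The neighbours described next were chosen after their values were seen. Psme2b, a proteasome activator gene copy inside the first chromosome 11 cluster, fell by 0.52 on the log2 scale, and Trim7 beside Irgm1 fell by 0.88. The largest change was in 4930438A08Rik, beside Irgm2, which fell by 1.67 (edgeR adjusted p = 0.0047). Zfp62, beside Ifi47, rose by 0.63, and Zfp672, beyond Irgm2, rose by 0.93. On chromosome 3, Pdlim5 fell by 0.33 and Pkn2 rose by 0.37, both small against the change of Gbp2 and Gbp3.

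Of 20 listed interferon signalling genes, 19 were tested, 6 fell, 3 rose and 10 did not pass. Over all tested genes 26.1% fell and 25.6% rose, so the count of falls was near the background, and most of those falls were in transcription factor genes. No receptor gene was called lower. Ifngr1 had a log2 fold change of 0.12 (95% confidence interval -0.02 to 0.26), Ifngr2 one of 0.03 and Ifnar1 one of -0.02, none past the threshold, while Ifnar2 rose by 0.77 (edgeR adjusted p = 1.7e-04). Among the transcription factors, Stat2 stood at 107, 112 and 102 CPM in I/R, against 26.1, 29.6 and 29.5 CPM with chemerin-9, groups that were far apart. Its log2 fold change was -1.91 (SE 0.06, edgeR adjusted p = 6.2e-12). Irf7, which is itself induced by interferon, fell by 2.10 (edgeR adjusted p = 5.2e-10), and Irf9, the DNA-binding partner of STAT2, fell by 1.12 (edgeR adjusted p = 1.3e-09).

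Usp18, a feedback inhibitor at the type I receptor, fell by 1.55 (edgeR adjusted p = 1.5e-08). Irf1, the factor through which interferon-gamma reaches many of these GTPases, did not pass. It stood at 43.8, 37.4 and 39.7 CPM in I/R, against 36.1, 38.8 and 40.01 CPM with chemerin-9, with overlapping groups. Its log2 fold change was -0.07 (95% confidence interval -0.22 to 0.08, edgeR adjusted p = 0.44). Jak2, a kinase of the interferon-gamma receptor, rose by 0.17 (edgeR adjusted p = 0.042), a call lost in 7 of 14 alternative fits with adjusted p of 0.050 to 0.36. Irf8, a factor of myeloid cells, rose by 0.97 (edgeR adjusted p = 1.5e-04), and Tyk2, a kinase of the type I receptor, fell by 0.68 (edgeR adjusted p = 7.5e-06).

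Of 15 listed genes of interferons and of cytokines that induce them, 4 had a row, and those 4 had too few counts to test. Ifnb1 had 1, 0 and 0 counts in I/R, against 0, 0 and 1 counts with chemerin-9, and Ifng was not analysed here. Il18, a cytokine that drives interferon-gamma production, had 4, 8 and 9 counts in I/R, against 8, 7 and 6 counts with chemerin-9, with overlapping groups. Ifne and Il27 had at most 9 counts in any library.

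**Figure D4:**
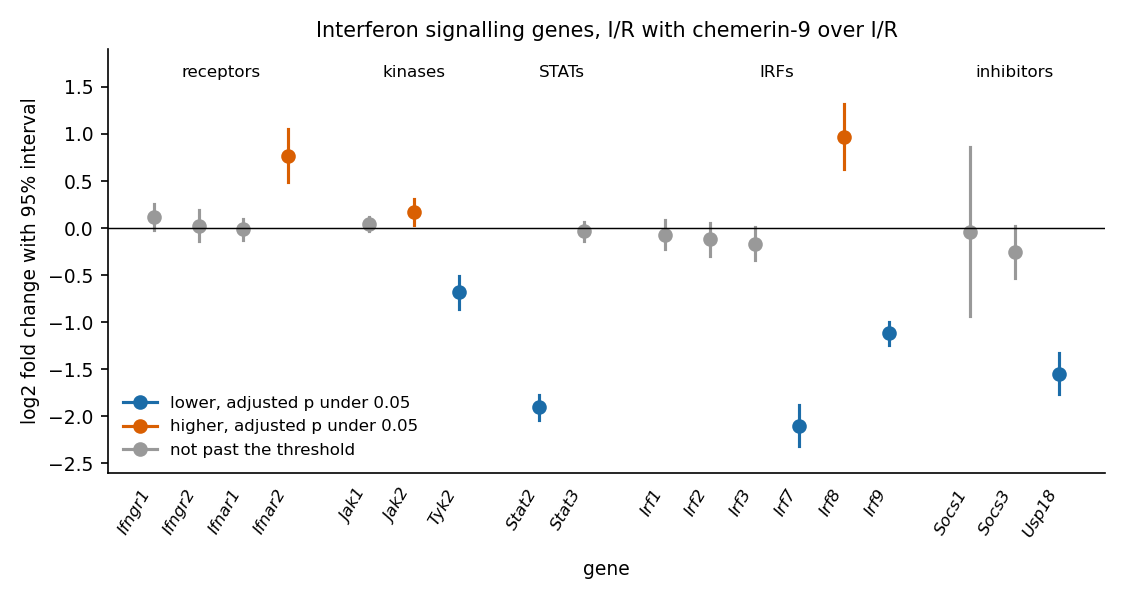
Log2 fold change with chemerin-9 against I/R (edgeR, 95% confidence interval) for tested interferon signalling genes, ordered by step from receptor to feedback. Stat2, Irf7, Irf9 and Usp18 lie below -1, while Ifngr1, Ifngr2, Ifnar1, Jak1 and Irf1 have intervals that cross 0.

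Genes that interferon-gamma is known for were lower in part. Of 8 tested, 4 fell and none rose at the threshold, with a median log2 fold change of -0.31. Over all tested genes 26.1% fell and 25.6% rose. Cxcl10, a chemokine that attracts T cells, stood at 13.8, 14.7 and 15.7 CPM in I/R, against 2.88, 2.58 and 2.87 CPM with chemerin-9, far apart, a log2 fold change of -2.41 (SE 0.14, edgeR adjusted p = 4.0e-09). Tap1 and Tap2, the peptide transporter of antigen presentation, fell by 0.78 and 0.59, and Cd74, the class II invariant chain, fell by 0.28. The 4 that did not pass were Nlrc5, Psmb9, Psmb10 and Cd274.

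Genes of the machinery that places these GTPases on membranes moved in both directions. Of 15 tested genes of ATG8 conjugation, ubiquitin tagging and GTPase regulation, 8 fell and 3 rose. Over all tested genes 26.1% fell and 25.6% rose. Trim21, a ubiquitin ligase, fell by 1.38 (edgeR adjusted p = 1.2e-06). Gabarapl1, an ATG8 protein, fell by 1.01 (edgeR adjusted p = 1.2e-08), and Sqstm1, the adaptor p62, fell by 0.50. Atg3, which conjugates ATG8 proteins and is needed for IRG loading in mice, rose by 0.78 (edgeR adjusted p = 1.1e-07). Of 8 tested inflammasome genes linked to guanylate-binding proteins, 2 fell, Zbp1 by 1.37 and Aim2 by 0.30. That count was near the 26.1% of all tested genes that fell. Casp4, the mouse caspase-11 gene, had a log2 fold change of 0.16 (edgeR adjusted p = 0.19), and Naip5 one of -0.58 (edgeR adjusted p = 0.079), and neither passed.

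Other dynamin-related GTPases moved in both directions. Of 15 tested, 7 fell and 5 rose, with a median log2 fold change of -0.03. Over all tested genes 26.1% fell and 25.6% rose. Mx2, an antiviral GTPase, had the largest change of the list, from 9.003, 7.36 and 7.95 CPM in I/R to 0.872, 0.663 and 0.560 CPM with chemerin-9, groups that were far apart. Its log2 fold change was -3.54 (SE 0.23, edgeR adjusted p = 1.2e-08). Ehd1, which recycles membrane receptors, fell by 0.75. The atlastin Atl2, a shaper of the endoplasmic reticulum in the same superfamily as the guanylate-binding proteins, fell by 0.31. The listed atlastins Atl1 and Atl3 rose, by 0.56 and 0.20, and the Atl3 call was lost after the GC and length correction. Dnm3, a dynamin, rose by 0.95 (edgeR adjusted p = 2.2e-05).

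Among the 5 non-member genes closest in pattern to the mean of the tested members were Gm16201, Ubald1, Xdh and Prr13. Likeness was the Euclidean distance over the 6 libraries between log2 CPM values centred on the gene's mean, and it was 0.13 for Gm16201 and 0.16 for the others. The members themselves lay farther from their mean, from 0.30 for Gbp3 to 0.85 for Ifi47. Xdh, xanthine dehydrogenase, stood at 143, 140 and 136 CPM in I/R, against 53.3, 53.7 and 48.6 CPM with chemerin-9. With so few libraries, any gene with a like fold change and little spread is near.

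In the authors' deposited table, made from the same counts, all 10 members had a log2 fold change below 0 and 8 had an FDR under 0.05. That table gave Gbp7 a log2 fold change of -2.41 with an FDR of 0.031, where the edgeR fit left the gene untested. In the authors' deposited table, Iigp1 had an FDR of 0.12 and Tgtp1 one of 0.58, so neither passed.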

How the data were processed

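Total RNA went into stranded mRNA libraries (Vazyme kit), per the labels' protocols. The submitters' processing notes name HISAT2, HTSeq, DESeq 1.18.1 and mm10. The annotation counted and the use of strand were not given in the sources used here. A single deposited table holds the authors' raw counts per gene symbol and columns of the authors' own comparison: FDR, p-value, fold change (a ratio) and its log2. Of 25216 rows, 27 that repeated a symbol were removed, leaving 25189. No other column of per-sample values was present. Starts in the table were those of GENCODE M21 on GRCm38 for 97.5% of the genes compared.

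Titles set the groups. In the treatment field the treated samples read C9, C10 and C11, while all titles read C9. The treated columns of the table are named IC, while the labels name columns starting with S, and IC was read as I/R with C9. That reading could not be checked, and every statement on chemerin-9 rests on it. For the same reason the column numbers of the chemerin-9 libraries are not tied to titles.

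The test was edgeR's quasi-likelihood test on the counts (edgeR 4.0.16, R 4.3.3), with TMM factors and group as the only term. The filter was filterByExpr (0.738 CPM in 3 libraries), and p-values were adjusted by Benjamini-Hochberg over 14184 genes, with a threshold of 0.05. The script was checked on simulated data. Alternatives used limma 3.58.1, DESeq2 1.42.0, other size factors and filters, a replicate block, a GC and length correction, and leaving out each library. Levels per kb used exon unions of GENCODE M21. Permutation tests were exact and two-sided. Promoters were RefSeq windows on GRCm38.p6. Named genes were the members, the listed relatives with a row, up to 4 genes of each other list with the smallest p, and 5 genes nearest in pattern. Receptor genes, Irf1, Jak2 and Jak1 in the signalling list, and others outside that rule, were named after their values were seen. Members and lists were chosen with earlier results of these data known. Some listed genes are not reported here.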

Additional observations from a re-analysis of the deposited data

How the results depend on the processing

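The 7 tested members, Tgtp2 among them, stayed lower with an adjusted p under 0.05 in all 14 alternative fits run for them. These comprised RLE and upper-quartile size factors, limma-voom, DESeq2, no filter, a stricter filter, a replicate block, removal of a GC and length trend, and leaving out each library. Their log2 fold changes ranged from -2.08 to -1.85 for Gbp2, -1.62 to -1.51 for Gbp3, -1.15 to -1.01 for Irgm1, -1.36 to -1.09 for Irgm2, -1.54 to -1.30 for Igtp and -1.99 to -1.53 for Tgtp2. Summing counts of Tgtp1 with Tgtp2 and of Igtp with Irgm2, chosen after seeing the data, kept both calls. The count of members called lower was 7 as reported, 9 with no filter on low counts, and 7 to 8 when a library was left out. The call added on leaving out a library was Gbp7, which entered only through I/R libraries where it was high. The count of higher calls among the listed relatives was 2. It was 1 with DESeq2, 1 with no filter on low counts and 1 after removal of the GC and length trend, and 1 to 2 when a library was left out, with 9930111J21Rik1 lost each time. Without I/R replicate 3, the library that stood apart, 7323 genes were called, against 7336 with it.

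Deviations of same-numbered libraries correlated at 0.10, -0.05 and 0.04, against -0.14 to 0.11 for libraries of unlike number. The column numbers of the chemerin-9 libraries are not tied to titles, so these values cannot show whether libraries were paired. With the replicate block, 7300 genes were called and 7 members were lower. Depth limits Gbp7, Iigp1, Tgtp1 and Tgtp2, which had at most 27 counts in any library.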
